A study of Mus musculus with 9 samples.

Results

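Skin from mice labelled IL-6 -/- was compared with skin from BALB/c mice across all genes, on reads in exons and, separately, on reads in introns. The comparison rests on the 6 of 9 libraries whose titles carry those names, 3 in each group. The other 3 libraries come from C57BL/6 mice and enter only through the shared estimate of the spread between libraries and as side values. The mice labelled IL-6 KO carried the genotype IL-6 -/- on a strain given as C57BL/6, and the BALB/c mice carried no named allele. All animals came from Jackson Laboratory aged 4 to 5 weeks, acclimated for 2 weeks and entered at 6 weeks of age. They were shaved on day 0, had no agent applied for 7 days, and whole skin was taken on day 8. Genotype and strain change together between these groups and cannot be told apart here. The protocol counts 6 IL-6KO mice and there are 3 libraries, and the labels do not say whether animals were pooled. The p-values therefore measure only the spread between these libraries.

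Interleukin 6 is a cytokine that binds its own receptor chain, recruits the shared chain gp130 and signals through Janus kinases and STAT3. In skin it is known for its part in wound repair, keratinocyte growth and the response to irritation. BALB/c is an albino strain, and it carries another haplotype of the major histocompatibility complex (MHC) than C57BL/6. The hair follicle passes through growth, regression and rest, and its growth phase brings dividing matrix cells, pigment cells and keratinising shaft cells into the skin.

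The targeted gene was looked at first. Il6 (chr5:30013114-30019981, GRCm38) had 6, 24 and 1 exon reads in the IL-6 KO-labelled libraries and 0, 2 and 0 in BALB/c. Its introns held 7, 12 and 5 reads in the IL-6 KO-labelled libraries and 0 in each BALB/c library. The gene missed the minimum count of the exon test, and in the same test without that minimum its log2 difference was 4.09 ± 1.21 (SE, adjusted p = 0.0272). Reads over the gene thus went against the label, which does not say which part of the gene was deleted, and the groups are called by their labels throughout. Strain-linked genes differed as well, with Nnt, a mitochondrial transhydrogenase, at 10, 16.9 and 8.9 counts per 1000000 reads (CPM) against 68.3, 102 and 94.8, and H2-Ea-ps at 0 in the IL-6 KO-labelled libraries against 51.6 to 88.7 CPM in BALB/c.

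Exon reads per library numbered 3843953 to 4476346 in the IL-6 KO-labelled libraries and 6115739 to 6242332 in BALB/c. Markers of the hair follicle summed to 13991 to 48285 CPM in the IL-6 KO-labelled libraries against 15.2 to 29.5 in BALB/c, and all 8 markers were called higher. Skeletal muscle markers went the other way, at 5629 to 6468 against 18812 to 38956 CPM, with 6 of 6 called lower. All 5 melanocyte markers were called higher, at a sum of 70.1 to 865 against 8.5 to 15.7 CPM. Epidermal markers (10085 to 28760 against 20680 to 24551 CPM) and fibroblast markers (4906 to 17740 against 3858 to 11473 CPM) had overlapping sums, so the labelled tissue was skin by its own markers. Of the IL-6 KO-labelled libraries, replicate 2 stood apart, with the lowest hair and melanocyte sums and the highest epidermal and fibroblast sums. BALB/c replicate 1 held the highest adipocyte sum, 6046 CPM against 1313 CPM in the lowest BALB/c library, and BALB/c replicate 2 was the one library with more than a few exon reads of Xist, 130 against 0 to 5. In bulk skin, fewer cells of a type and less RNA per cell cannot be told apart, and the part of these cell types in the results below was not tested.

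**Figure D1:**
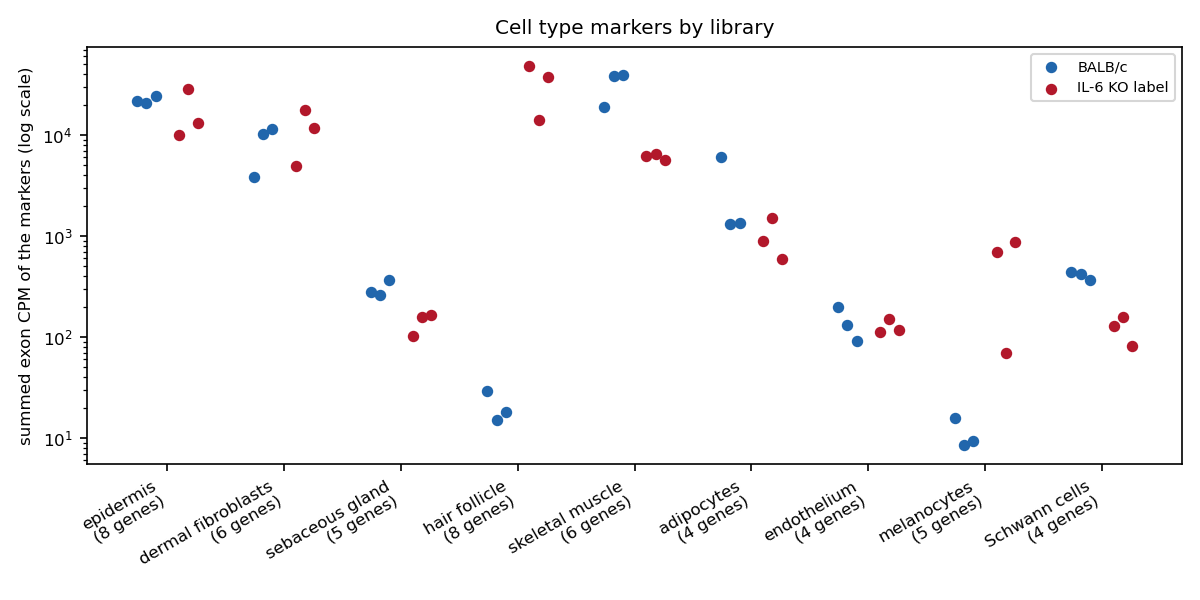
Summed exon CPM of cell type markers (log axis) for each of the 3 BALB/c libraries and the 3 IL-6 KO-labelled libraries, 1 point per library. Hair follicle, melanocyte and skeletal muscle sums do not overlap between the groups, while epidermal and fibroblast sums do.

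Of 14415 genes tested on exon reads, 5370 (37.3%) passed edgeR's quasi-likelihood test at a Benjamini-Hochberg adjusted p under 0.05, and such genes are called here. There were 2867 called higher (19.9%) and 2503 called lower (17.4%) in the IL-6 KO-labelled libraries, and 2880 of the calls reached 2-fold. The groups did not overlap in 50.7% of all genes tested. Without IL-6 KO replicate 2 the number of calls was 7044 of 14749 genes tested, and without IL-6 KO replicate 3 it was 3310 of 14682. The minimum count was applied anew in such runs, so a list can hold more tested members there. The counts of each gene list below on all libraries are read against the shares of 19.9% and 17.4%. Counts without a library belong beside the calls over all genes in that run. These were 3723 higher and 3321 lower without IL-6 KO replicate 2, and 1861 and 1449 without IL-6 KO replicate 3. Without IL-6 KO replicate 1 they were 1987 and 1654 of 14711. Without BALB/c replicates 1, 2 and 3 they were 2287 and 2128 of 14714, 1913 and 1887 of 14749, and 2103 and 2022 of 14762. Differences are log2 of the IL-6 KO label over BALB/c, with the SE, and CPM values are given in the order of replicates 1, 2 and 3. Where a gene overlaps another, reads of both cannot be told apart, since the sources used here do not say that strand was used in counting. Of the genes named below this holds for the growth genes Top2a and Mki67, the metabolic genes Ndufb5, Atp5d, mt-Nd2, Cpt1b, Pfkm, Scd2, Odc1, Slc7a11, Ahcy and Ctsb, and the matrix, vessel and nerve genes Tnc, Vcan, Col4a6, Abcc9 and Mbp. It also holds for the immune genes Il6ra, Stat3, Il11ra1, Junb, Clcf1, Ptpn11, Pim1, Timp1, Ctf1, Cntf, Pias3, Psmb9, Tap1, Ctla4, Il20ra and Serpina1b, and for Krt5, Krt6a, Krt10, Lef1, Lgr5, Gli3, Notch1, Nr3c2, Satb1, Rps2, Rps18 and Cnot6.

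**Figure D2:**
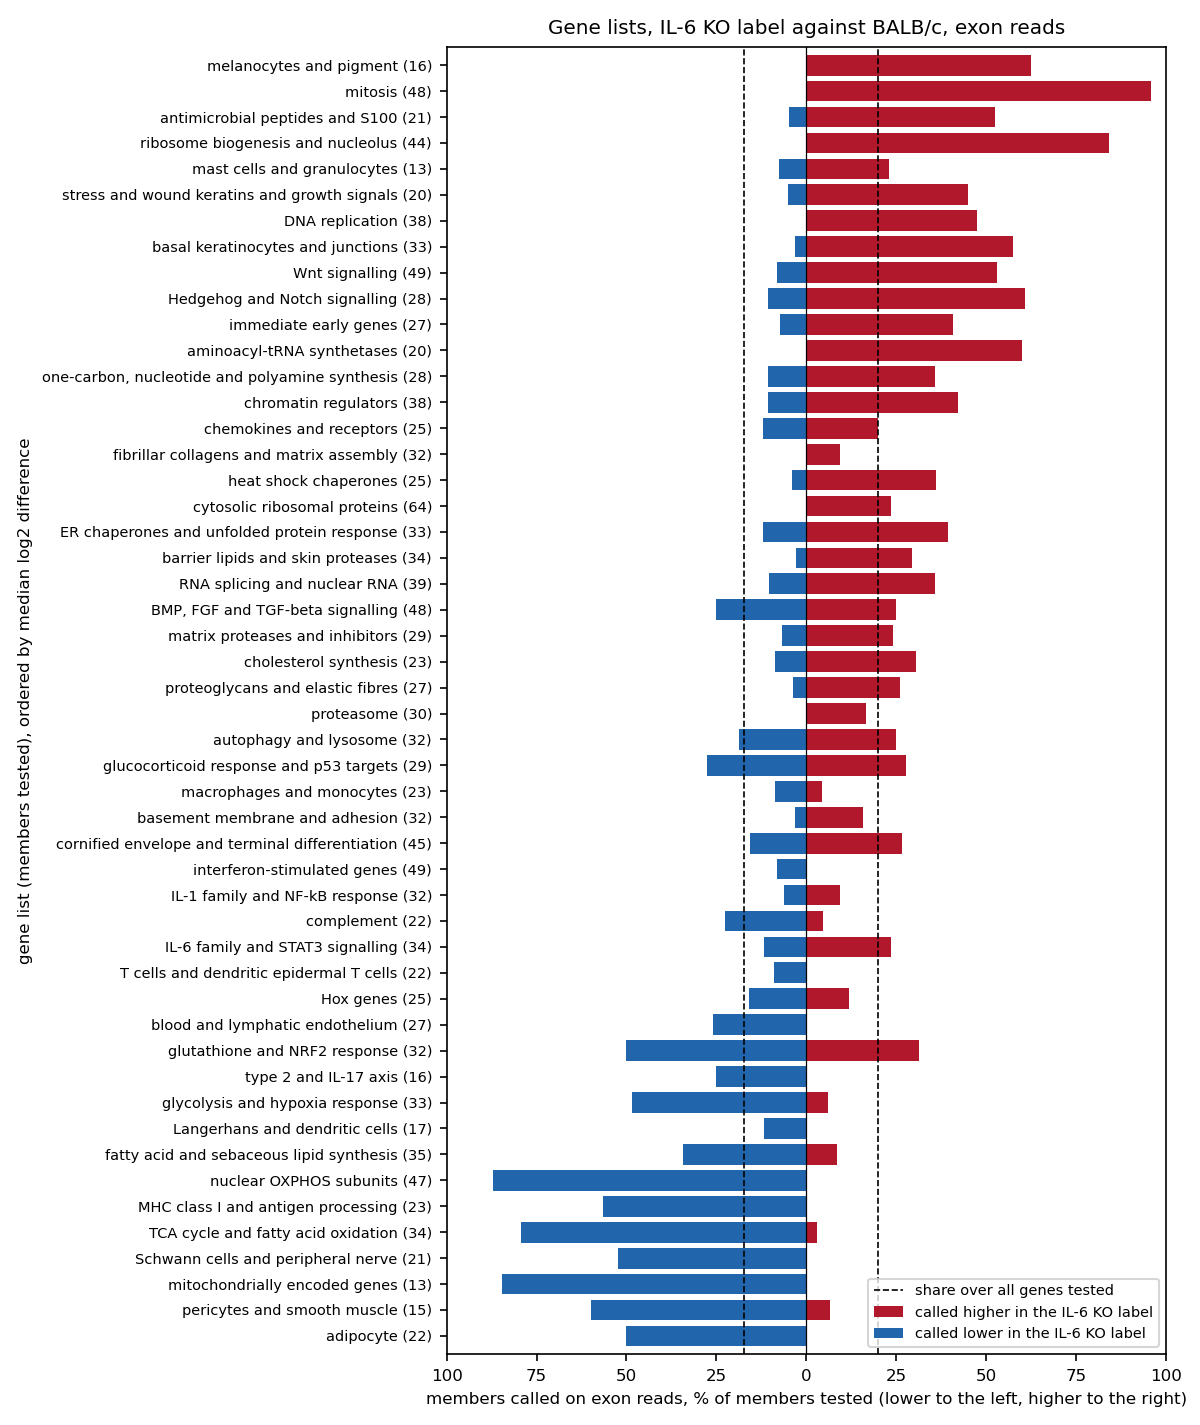
Share of the tested members of each gene list called higher (right) or lower (left) in the IL-6 KO-labelled libraries on exon reads, in percent, with the shares over all genes tested as dashed lines. Mitosis and ribosome biogenesis lie far to the right, and nuclear OXPHOS subunits, mitochondrially encoded genes and the TCA cycle far to the left.

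Genes of cell division were higher in the IL-6 KO-labelled libraries almost throughout their list. Mitosis genes, which build and run the spindle, were called higher in 46 of 48 tested, with a median log2 difference of 1.76 beside 0.01 over all genes tested, and none was called lower. Kif11, the motor that pushes the spindle poles apart, was at 49.9, 21.1 and 57.6 CPM against 6.04, 5.81 and 8.25 in BALB/c (2.67 ± 0.36, adjusted p = 0.000808). Top2a, which untangles DNA before division, was at 164, 58.7 and 137 against 19.9, 21.7 and 25.6 CPM (2.42 ± 0.34, adjusted p = 0.000917). The proliferation marker Mki67 was at 246, 98.9 and 255 against 43.2, 42.0 and 53.2 CPM (2.12 ± 0.33, adjusted p = 0.00149). In all 3 genes the lowest IL-6 KO-labelled library was replicate 2, and it still lay above every BALB/c library. The 2 members not called were Aurka (1.00 ± 0.36, adjusted p = 0.0554) and Ttk (0.22 ± 0.23, adjusted p = 0.474).

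Promoters of these genes are shown because many of them share short letters that proteins of the cell cycle machinery are known to bind. Each line gives the 250 bases before the start of the gene, 5′ to 3′ on the gene's strand, from RefSeq on GRCm38.p6. All promoters shown, that of Kif11 included, were picked by p among called genes holding the marked letters with no annotated exon in the window. Top2a, Mki67 and Mcm5 were named in the text for this reason, after their values were seen. Capitals mark CCAAT (or ATTGG on the other strand) and TTTGAA (or TTCAAA) in the first 3 lines, and the E2F letters TTTGGCGC on either strand in the line of Mcm5, a subunit of the replicative helicase. The windows are chr19:37376132-37376381 on the plus strand for Kif11, chr11:99024190-99024439 on the minus strand for Top2a, chr7:135716380-135716629 on the minus strand for Mki67 and chr8:75109259-75109508 on the plus strand for Mcm5.
Kif11: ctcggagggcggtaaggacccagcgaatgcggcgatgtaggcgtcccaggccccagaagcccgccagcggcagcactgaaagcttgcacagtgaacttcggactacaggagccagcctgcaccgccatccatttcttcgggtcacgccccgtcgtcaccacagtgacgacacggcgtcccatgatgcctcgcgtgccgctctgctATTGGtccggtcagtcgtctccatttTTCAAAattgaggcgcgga
Top2a: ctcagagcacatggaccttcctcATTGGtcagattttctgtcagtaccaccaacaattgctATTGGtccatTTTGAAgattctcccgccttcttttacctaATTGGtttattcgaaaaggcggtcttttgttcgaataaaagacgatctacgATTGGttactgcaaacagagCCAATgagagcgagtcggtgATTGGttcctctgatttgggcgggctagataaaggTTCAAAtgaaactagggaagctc
Mki67: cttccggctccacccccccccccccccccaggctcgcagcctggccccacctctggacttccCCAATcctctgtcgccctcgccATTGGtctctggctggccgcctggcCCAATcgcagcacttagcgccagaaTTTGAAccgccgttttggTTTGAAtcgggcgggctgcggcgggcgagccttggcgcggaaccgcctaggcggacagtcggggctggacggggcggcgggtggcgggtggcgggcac
Mcm5: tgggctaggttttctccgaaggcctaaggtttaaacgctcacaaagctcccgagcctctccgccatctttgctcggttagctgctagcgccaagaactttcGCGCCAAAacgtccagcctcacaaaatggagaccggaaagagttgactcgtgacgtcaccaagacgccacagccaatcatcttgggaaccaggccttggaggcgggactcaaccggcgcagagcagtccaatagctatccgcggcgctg

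CCAAT, searched on both strands, occurred in 29 of the 40 mitosis promoters that had a sequence (72.5%), against 36.05% of 10895 promoters of genes tested and 34.46% of all 27025 promoters in the table. TTTGAA occurred in 13 of 40 (32.5%), against 10.92% and 16.27%, and both letters together in 12 of 40 (30%), against 4.277% and 5.732%. The E2F letters TTTGGCGC or TTTCCCGC occurred in 6 of 32 promoters of DNA replication genes (18.75%) and in 0 of 40 mitosis promoters, against 2.396% of genes tested and 1.354% of all. A match is a run of letters and not a measured binding site.

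DNA replication genes were called higher in 18 of 38 tested and lower in 0, with a median of 0.70. This count depended on single libraries, and was 7 without IL-6 KO replicate 3, 8 without BALB/c replicate 2, 9 without IL-6 KO replicate 1, 10 without BALB/c replicate 1 and 28 without IL-6 KO replicate 2. Mcm5 was at 66.8, 27.6 and 54.0 against 18.4, 15.3 and 19.9 CPM (1.46 ± 0.32, adjusted p = 0.00754), with no overlap between the groups. Mcm10, which loads the polymerase at the fork, was at 17.7, 3.86 and 13.1 against 1.91, 2.16 and 2.75 CPM (2.32 ± 0.49, adjusted p = 0.00627). Of 53 replication-dependent histone genes 9 were tested, with 1 called higher and 4 lower. Reads of near-identical copies cannot be told apart here, and Hist1h2bk and Hist2h2aa1 had 0% of their exon reads unique. On exon and intron reads together, Hist1h2bk went from -5.74 alone to 0.41 with overlapping groups when summed with its copies. Hist2h2aa1 went from -1.94 to -0.78 without overlap.

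The machinery that makes ribosomes was higher too. Ribosome biogenesis and nucleolus genes were called higher in 37 of 44 tested and lower in 0, with a median of 0.79, and the count went to 21 without IL-6 KO replicate 3, 23 without BALB/c replicate 2 and 24 without IL-6 KO replicate 1. Heatr1, a nucleolar factor of ribosomal RNA transcription and processing, was at 51.7, 36.6 and 56.1 against 19.1, 15.9 and 19.3 CPM (1.41 ± 0.19, adjusted p = 0.000911). Polr1b, a core subunit of RNA polymerase I, was at 37.7, 24.4 and 38.1 against 13.2, 12.1 and 14.2 CPM (1.34 ± 0.20, adjusted p = 0.00123). Neither gene overlapped between the groups. Aminoacyl-tRNA synthetases, which charge tRNAs, were called higher in 12 of 20 and lower in 0, but in 5 without IL-6 KO replicate 1 or 3, 6 without BALB/c replicate 1 or 2 and 7 without BALB/c replicate 3. Rars, which charges tRNA with arginine, had a log2 difference of 1.32 ± 0.22 (adjusted p = 0.00214). Cytosolic ribosomal proteins were called higher in 15 of 64, near the background of 19.9%, and in 9 without BALB/c replicate 2, 31 without IL-6 KO replicate 2 and 32 with DESeq2. The differences of Rpl29, Rps18 and Rps2 in this list shrank when near-identical copies were counted together, as given below.

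Among genes of protein folding and turnover, the endoplasmic reticulum and unfolded protein response list had 13 of 33 called higher and 4 called lower. The lower count was 1 or 2 without any one of IL-6 KO replicates 1 and 3 or BALB/c replicates 1 and 2. Ero1l, the oxidase that drives disulfide formation in the endoplasmic reticulum, was at 285, 112 and 246 against 33.8, 27.9 and 31.1 CPM (2.79 ± 0.31, adjusted p = 0.000423). Chac1, which breaks down glutathione and is a target of the ATF4 branch, was at 248, 82.3 and 151 against 15.9, 41.3 and 34.6 CPM (2.39 ± 0.49, adjusted p = 0.00514). Every IL-6 KO-labelled library lay above every BALB/c library for both. Heat shock genes were called higher in 9 of 25 and lower in 1, with 5 higher without IL-6 KO replicate 1 or BALB/c replicate 2. Proteasome subunits were called higher in 5 of 30, below the background share, and in 1 to 3 without any one library other than IL-6 KO replicate 2, whose absence gave 14. Autophagy and lysosome genes were called higher in 8 of 32 and lower in 6, with 2 or 3 lower without IL-6 KO replicate 1 or 3 or BALB/c replicate 2. Ctsb, a lysosomal protease, was at 1619, 1485 and 1421 against 952, 853 and 786 CPM (0.80 ± 0.18, adjusted p = 0.00811).

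Genes of mitochondrial respiration were lower in the IL-6 KO-labelled libraries as a block. Nuclear-encoded subunits of oxidative phosphorylation (OXPHOS) were called lower in 41 of 47 tested and higher in 0, with a median of -0.85, all 47 log2 differences below 0 and 45 without overlap between the groups. The 6 members not called were Ndufs8, Cox8a, Atp5a1, Atp5d, Atp5g1 and Atp5g3. Ndufb5, a subunit of complex I (chr3:32736990-32751566), was at 61.8, 64.2 and 57.8 against 137, 144 and 137 CPM (-1.18 ± 0.17, adjusted p = 0.00104). Ndufa5, another complex I subunit, was at 35.1, 29.1 and 36.0 against 72.1, 85.6 and 75.7 CPM (-1.22 ± 0.17, adjusted p = 0.000964). The values lay close together within each group in both genes. Markers of skeletal muscle, a tissue rich in mitochondria, were lower in the same libraries (5629 to 6468 against 18812 to 38956 CPM), and their part in the result was not tested.

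Genes encoded on mitochondrial DNA were called lower in 11 of 13, with a median of -1.28. Reads of mt-Nd2, a complex I subunit, were at 1905, 1758 and 1524 against 6793, 5186 and 4573 CPM (-1.67 ± 0.30, adjusted p = 0.00293). On reads with 1 place in the genome the count was 6 of 13. These genes adjoin on the circular genome, and copies of them lie in the nuclear genome.

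Genes of the TCA cycle and fatty acid oxidation were called lower in 27 of 34 and higher in 1, with a median of -1.15, and lower in 17 without IL-6 KO replicate 1 and 13 without IL-6 KO replicate 3. Suclg1, a subunit of succinyl-CoA ligase, was at 73.1, 67.9 and 72.2 against 293, 144 and 135 CPM (-1.42 ± 0.31, adjusted p = 0.00682). In this gene BALB/c replicate 1, the library with the highest adipocyte sum (6046 CPM), was the highest, and the other BALB/c libraries still lay above all IL-6 KO-labelled libraries. The member called higher was Cpt1a, the carnitine acyltransferase of liver type, at 127, 111 and 105 against 61.6, 59.2 and 68.0 CPM (0.86 ± 0.18, adjusted p = 0.0059). Cpt1b, its muscle form, was at 34.6, 33.9 and 33.7 against 258, 171 and 145 CPM, with 10.3% of its exon reads unique.

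Glycolysis genes were called lower in 16 of 33 and higher in 2, with a median of -0.66, and higher in 0 without BALB/c replicate 3 and 1 without IL-6 KO replicate 3 or BALB/c replicate 2. The 2 called higher were Hif1a, the hypoxia-regulated transcription factor, and Eno1, an enolase. Eno1 was at 0.91 on its own exon reads. On exon and intron reads together it was at 0.98 alone, and at -0.04 with overlapping groups when summed with its near-identical copies. Ldhb, the lactate dehydrogenase subunit of oxidative tissues, was at 45.9, 48.4 and 43.0 against 185, 159 and 146 CPM (-1.84 ± 0.17, adjusted p = 0.000234). Pfkm, the muscle form of phosphofructokinase, was at 296, 245 and 261 against 813, 1713 and 1426 CPM (-2.30 ± 0.31, adjusted p = 0.000783). Slc2a4, the insulin-responsive glucose transporter of muscle and fat, was at 38.5, 46.7 and 35.0 against 169, 208 and 177 CPM (-2.20 ± 0.20, adjusted p = 0.000234). The groups did not overlap in any of the 3.

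Lipid genes split between pathways. Cholesterol synthesis genes were called higher in 7 of 23 and lower in 2, though the higher count was 2 without IL-6 KO replicate 1 or 3 or BALB/c replicate 2, and 4 without BALB/c replicate 1, and 4 were lower without IL-6 KO replicate 2. Insig1, which restrains the pathway when sterols are plentiful, was at 218, 102 and 178 against 80.2, 51.1 and 62.3 CPM (1.36 ± 0.27, adjusted p = 0.00437). Fatty acid synthesis and sebaceous genes were called lower in 12 of 35 and higher in 3, with 7 and 6 lower without IL-6 KO replicates 1 and 3 and 5 higher without IL-6 KO replicate 2. A pair of stearoyl-CoA desaturases went opposite ways. Scd2 was at 600, 245 and 555 against 129, 138 and 136 CPM (1.80 ± 0.30, adjusted p = 0.00191), and Scd3, the form of the sebaceous gland, at 9.76, 22.1 and 17.2 against 103, 121 and 164 CPM (-2.97 ± 0.36, adjusted p = 0.000531). Sebaceous markers summed to 103 to 166 against 263 to 367 CPM, with 2 of 5 called lower and 1 called higher, and their part was not tested.

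Adipocyte genes were called lower in 11 of 22 and higher in 0, with a median of -1.76 that became -0.81 when BALB/c replicate 1 was left out, and the count was 3 without IL-6 KO replicate 1 or 3, 5 without BALB/c replicate 1 or C57BL/6 replicate 1, 6 without C57BL/6 replicate 3 and 19 without IL-6 KO replicate 2. Car3, a carbonic anhydrase abundant in fat and muscle, was at 729, 1549 and 561 against 5636, 4470 and 3742 CPM (-2.29 ± 0.40, adjusted p = 0.00267). Adipoq, the fat hormone adiponectin, was at 69.4, 198 and 37.1 against 680, 176 and 180 CPM and was not called (-1.76 ± 0.67, adjusted p = 0.0639). Its groups overlapped through IL-6 KO replicate 2.

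Nucleotide, polyamine and redox genes held some of the clearest single differences. Ctps, which makes CTP, was at 302, 78.4 and 230 against 20.2, 22.7 and 19.9 CPM (3.28 ± 0.41, adjusted p = 0.000614). Odc1, the first enzyme of polyamine synthesis, was at 256, 146 and 238 against 37.6, 53.8 and 51.3 CPM (2.16 ± 0.28, adjusted p = 0.000669). One-carbon, nucleotide and polyamine genes as a list were called higher in 10 of 28 and lower in 3, with 6 higher without IL-6 KO replicate 1 or 3 or BALB/c replicate 2 and 17 without IL-6 KO replicate 2.

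Glutathione and NRF2 genes were called lower in 16 of 32 and higher in 10, with 7 and 8 lower without IL-6 KO replicates 1 and 3. Slc7a11, the cystine importer (chr3:49892526-50443614), was at 27.2, 13.4 and 20.8 against 0.477, 0.166 and 0.971 CPM (5.18 ± 0.48, adjusted p = 0.000236). Gclc, the catalytic subunit that begins glutathione synthesis, was at 86.0, 43.7 and 79.9 against 24.5, 19.9 and 21.4 CPM (1.67 ± 0.24, adjusted p = 0.00108). Gstm1, a glutathione transferase, was at 53, 69.9 and 51.3 against 145, 143 and 143 CPM (-1.30 ± 0.15, adjusted p = 0.000431). The supply genes named here were thus higher and the transferase lower, with no overlap between groups in any of them.

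**Figure D3:**
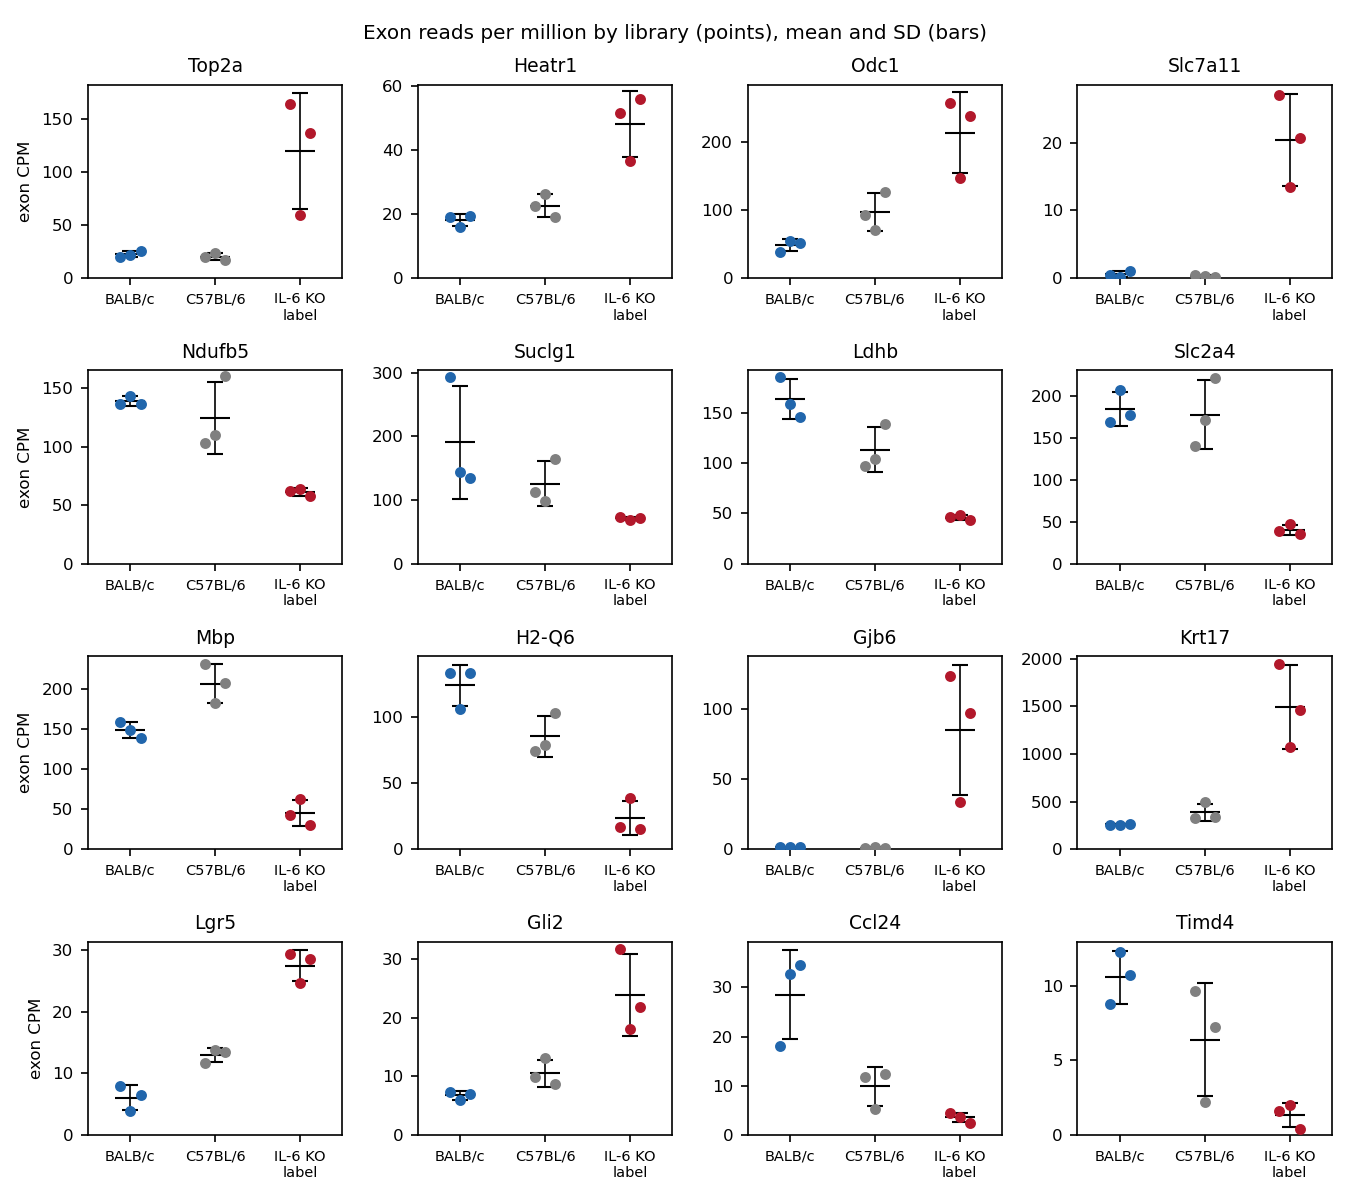
Exon CPM of 16 genes by library (points) with the mean and SD (bars) for BALB/c, C57BL/6 and the IL-6 KO label, each axis starting at 0. In the IL-6 KO-labelled libraries, Top2a lies at 58.7 to 164 CPM against 19.9 to 25.6 in BALB/c, and Ndufb5 at 57.8 to 64.2 against 137 to 144.

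In the connective tissue, genes of fibrillar collagens and matrix assembly were called higher in 3 of 32 and lower in 0, under the background, and higher in 6 without IL-6 KO replicate 1. Their median was 0.35, or 0.08 without IL-6 KO replicate 2 and 0.60 without IL-6 KO replicate 1. The 3 called were Tnc, the collagen Col12a1 and Plod2, an enzyme that modifies collagen. Col1a1, the main collagen of dermis, was at 1109, 3397 and 2768 against 502, 2231 and 2695 CPM and was not called (0.42 ± 0.77, adjusted p = 0.694). Tnc, a matrix glycoprotein of remodelling tissue and of the follicle sheath (chr4:63959785-64047015), was at 86.8, 129 and 88.3 against 9.69, 5.81 and 8.09 CPM (3.68 ± 0.29, adjusted p = 0.000126). Vcan, a large proteoglycan known from the dermal papilla, was at 44.9, 78.0 and 74.3 against 11.8, 18.4 and 14.7 CPM (2.14 ± 0.30, adjusted p = 0.00102). Both had their highest value in IL-6 KO replicate 2 and no overlap with BALB/c. Col4a6, a basement membrane collagen, was at 16.9, 19.1 and 10.4 against 0.953, 1.83 and 0.971 CPM (3.61 ± 0.33, adjusted p = 0.000235).

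Vessel and nerve genes were lower more often than higher. Pericyte and smooth muscle genes were called lower in 9 of 15 and higher in 1, or higher in 3 without IL-6 KO replicate 2 or C57BL/6 replicate 3. Kcnj8 and Abcc9 encode the pore and the regulatory subunit of a potassium channel of pericytes, the latter also present in muscle. Kcnj8 was at 4.22, 5.49 and 2.33 against 15.6, 19.9 and 16.2 CPM (-2.09 ± 0.28, adjusted p = 0.00079), and Abcc9 at 22.7, 30.9 and 25.6 against 76.3, 135 and 123 CPM (-2.07 ± 0.26, adjusted p = 0.000656). Endothelial genes were called lower in 7 of 27, and in 0 without IL-6 KO replicate 1 or 3 or BALB/c replicate 1 and 3 without BALB/c replicate 2, while Pecam1, the endothelial adhesion molecule, was at 49.1, 52.2 and 35.2 against 62.3, 49.1 and 34.1 CPM (-0.09 ± 0.25, adjusted p = 0.795).

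Schwann cell genes were called lower in 11 of 21 and higher in 0, with a median of -1.17. Mbp, a protein of compact myelin, was at 43.3, 62.6 and 30.3 against 159, 149 and 138 CPM (-1.71 ± 0.24, adjusted p = 0.000893). Drp2, which with periaxin links Schwann cells to their matrix, was at 5.54, 10.6 and 6.35 against 30.3, 34.2 and 24.3 CPM (-1.97 ± 0.24, adjusted p = 0.000544). The groups did not overlap for either gene.

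Melanocyte genes were called higher in 10 of 16 and lower in 0. The higher count was 16 without IL-6 KO replicate 2 or C57BL/6 replicate 1 or 2, where more genes passed the minimum count and more than 16 members may have been tested. Kit, the receptor that melanoblasts need, was at 57.8, 16.3 and 38.1 against 6.67, 3.65 and 3.56 CPM (3.00 ± 0.45, adjusted p = 0.00126). Tyrp1, a pigment enzyme, was at 184, 15.6 and 211 against 3.50, 1.33 and 1.13 CPM (6.08 ± 0.93, adjusted p = 0.00141). IL-6 KO replicate 2 was the low library in both and also had the lowest hair markers.

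The genes around IL-6 itself were mixed. Of 34 tested members of the IL-6 family and STAT3 list, 8 were called higher and 4 lower, with a median of -0.26. The median was -0.59 without IL-6 KO replicate 2, -0.07 without IL-6 KO replicate 1, -0.12 without IL-6 KO replicate 3, -0.13 without BALB/c replicate 1 and -0.17 without BALB/c replicate 2. Il6, Il11, Osm, Il27, Saa1 and Reg3g did not reach the minimum count. The receptor chain Il6ra was at 34.6, 99.3 and 33.9 against 76.6, 110 and 114 CPM (-0.83 ± 0.40, adjusted p = 0.127). The shared chain Il6st was at 150, 250 and 183 against 227, 270 and 247 CPM (-0.35 ± 0.19, adjusted p = 0.173), and the transcription factor Stat3 at 88.7, 165 and 103 against 142, 153 and 138 CPM (-0.28 ± 0.22, adjusted p = 0.35). Socs3, the feedback inhibitor that STAT3 induces, was at 18.2, 45.7 and 23.7 against 37.2, 42.5 and 45.5 CPM (-0.50 ± 0.35, adjusted p = 0.276). In each of these genes the highest IL-6 KO-labelled library was replicate 2, at or near the BALB/c values. Without that library each was called lower, Il6ra at -1.55 (adjusted p = 0.00138), Il6st at -0.58 (adjusted p = 0.0143), Stat3 at -0.59 (adjusted p = 0.0153) and Socs3 at -0.99 (adjusted p = 0.0228), and the list then had 15 members called lower; without IL-6 KO replicate 3 it had 2.

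The called members of that list span other cytokines and their receptors. Cntfr, the receptor of ciliary neurotrophic factor, was at 38.5, 22.6 and 42.2 against 8.74, 1.83 and 2.43 CPM (2.98 ± 0.49, adjusted p = 0.00198). Il11ra1, the receptor of interleukin 11, was at 160, 134 and 150 against 78.3, 66.5 and 65.2 CPM (1.08 ± 0.15, adjusted p = 0.00102). Junb, an early target of STAT3 and of growth factor signals, was at 209, 161 and 145 against 59.7, 68.0 and 67.7 CPM (1.40 ± 0.19, adjusted p = 0.000875). The groups did not overlap in any of the 3. Saa3, an acute phase protein, was at 8.97, 6.09 and 4.66 against 1.27, 0.332 and 0.647 CPM (3.08 ± 0.50, adjusted p = 0.00172). The rest of those called higher were the cytokine Clcf1 (1.26), the phosphatase Ptpn11 (0.66), the kinase Pim1 (0.61) and the protease inhibitor Timp1 (1.91). Timp1 was not called without IL-6 KO replicate 2 (adjusted p = 0.119), nor Pim1 without BALB/c replicate 3 (adjusted p = 0.0949). Called lower were the cytokines Ctf1 (-1.04) and Cntf (-1.55, with 1.89% of its exon reads unique), the receptor Lifr (-1.07) and the STAT inhibitor Pias3 (-0.81). Neither Lifr nor Pias3 was called without IL-6 KO replicate 3, at adjusted p = 0.0781 and 0.054. Genes of this list outside the named-gene rule were chosen after their values were seen.

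Genes of antigen presentation by MHC class I were called lower in 13 of 23 and higher in 0, with a median of -1.11, and in 20 without IL-6 KO replicate 2 and 8 without IL-6 KO replicate 3. H2-Q1 (chr17:35320405-35325099), a class Ib gene, was at 1.06, 0.61 and 1.06 against 32.1, 27.7 and 31.6 CPM (-5.05 ± 0.31, adjusted p = 2.95e-05). H2-Q2 (chr17:35342242-35346762) had no exon read in the IL-6 KO-labelled libraries and 49.9, 45.6 and 40.5 CPM in BALB/c, at least 203-fold lower against a floor of 3 reads over the group. H2-Q6 (chr17:35424850-35430055) was at 16.6, 38.6 and 15.5 against 133, 106 and 133 CPM (-2.39 ± 0.33, adjusted p = 0.000855). On exon and intron reads together it was at -2.28 alone and at -1.72 when summed with its 3 near-identical copies. These loci differ in sequence and content between the MHC haplotypes, so how well reads of each strain map to one reference was not tested. Of the other members, Psmb9, a subunit of the immunoproteasome, was at 7.65, 17.3 and 11 against 31.9, 30.7 and 31.6 CPM (-1.38 ± 0.25, adjusted p = 0.00311). The peptide transporter Tap1 was at 41.7, 73.5 and 39.4 against 91.2, 92.1 and 104 CPM (-0.89 ± 0.22, adjusted p = 0.0121). How well reads of each strain map to Psmb9 and Tap1 was not tested either.

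Other immune lists were near or below the background. Interferon-stimulated genes were called lower in 4 of 49 and higher in 0, with 16 lower without IL-6 KO replicate 2. Gbp2b, an interferon-induced GTPase, was at 0, 0.406 and 0.212 against 23, 14.8 and 16 CPM. Its mean in C57BL/6 was 0.164 CPM. The IL-6 KO label was not called different from C57BL/6 in this gene (0.41, adjusted p = 0.782), whereas BALB/c was called higher than C57BL/6 (6.61, adjusted p = 0.000326). Macrophage genes were called higher in 1 of 23 and lower in 2, with 4 higher without IL-6 KO replicate 1, 3 higher without C57BL/6 replicate 2 and 4 lower without IL-6 KO replicate 2. Timd4, a receptor of resident macrophages for dying cells, was at 1.58, 2.03 and 0.424 against 8.74, 12.3 and 10.7 CPM (-2.96 ± 0.60, adjusted p = 0.00509). T cell genes were called lower in 2 of 22, and in 10 without IL-6 KO replicate 2. Ctla4, an inhibitory receptor of T cells, was at 0.528, 1.22 and 0.635 against 5.56, 3.65 and 5.02 CPM (-2.52 ± 0.41, adjusted p = 0.00181). The groups did not overlap in Timd4 or Ctla4.

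Among chemokines, 5 of 25 were called higher and 3 lower, and without single libraries the counts ran from 2 to 7 higher and 1 to 8 lower. Cxcl14, a chemokine made by epidermis and follicle, was at 240, 132 and 186 against 41.6, 50.6 and 57.8 CPM (1.89 ± 0.27, adjusted p = 0.00095). Ccl24, which draws eosinophils, was at 4.49, 3.66 and 2.54 against 18.1, 32.7 and 34.6 CPM (-3.01 ± 0.40, adjusted p = 0.0008). Il20ra, a receptor chain for interleukins of the IL-20 family, was at 4.22, 17.7 and 2.12 against 42.7, 44.3 and 48.2 CPM (-2.46 ± 0.53, adjusted p = 0.00685). In the IL-1 list 3 of 32 were called higher and 2 lower, and 13 lower without IL-6 KO replicate 2. Langerhans and dendritic cell genes were called lower in 2 of 17, complement genes in 5 of 22 and genes of the type 2 and IL-17 axis in 4 of 16. Without IL-6 KO replicate 2 these counts were 11, 11 and 9.

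Many genes of stressed keratinocytes were higher in the IL-6 KO-labelled libraries, and calls among genes of the terminal layers depended on IL-6 KO replicate 2. Antimicrobial peptides and S100 proteins were called higher in 11 of 21 and lower in 1, or lower in 5 without IL-6 KO replicate 2. S100a7a, a calcium-binding protein of inflamed epidermis, was at 168, 41.4 and 100.4 against 1.27, 0.498 and 1.13 CPM (6.69 ± 0.63, adjusted p = 0.000247). S100a8, a subunit of calprotectin, was at 14.5, 28.2 and 16.5 against 1.11, 1.16 and 2.10 CPM (3.74 ± 0.71, adjusted p = 0.00365). Stress keratins and epidermal growth factors were called higher in 9 of 20 and lower in 1 (4 without IL-6 KO replicate 2). The higher count was 5 when reads of hair, muscle and keratin genes were left out of the table. That run removes the keratins of this list by construction, so the smaller count does not show that calls were lost. Krt6a was at 658, 944 and 702 against 75.5, 59.1 and 85.5 CPM (3.39 ± 0.34, adjusted p = 0.000291), and Krt17 at 1944, 1071 and 1462 against 257, 257 and 268 CPM (2.52 ± 0.26, adjusted p = 0.000312). Both keratins are known from wounded epidermis and from the outer root sheath of the follicle.

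Cornified envelope genes were called higher in 12 of 45 and lower in 7. The lower count was 0 without IL-6 KO replicate 1 or 3 or BALB/c replicate 3, 1 to 4 without any one of the other BALB/c or C57BL/6 libraries and 20 without IL-6 KO replicate 2. Sprr1a, an envelope precursor of stressed epidermis (chr3:92483952-92485895), was at 1362, 614 and 1099.5 against 18.4, 25.7 and 27.0 CPM (5.43 ± 0.52, adjusted p = 0.000267). Sprr1b, its close relative, was at 57.5, 91.4 and 54.9 against 3.02, 4.31 and 3.72 CPM (4.20 ± 0.29, adjusted p = 5.58e-05). Flg2, of the filaggrin family, was at 178, 772 and 211 against 1424, 1450 and 1579 CPM (-1.94 ± 0.55, adjusted p = 0.0224), and was not called without IL-6 KO replicate 3 (adjusted p = 0.0823). Krt10, the keratin of differentiating layers, was at 1431, 8486 and 2547 against 5983, 6762 and 7370 CPM and was not called (-0.69 ± 0.55, adjusted p = 0.351). IL-6 KO replicate 2 lay above the BALB/c range and the other 2 below it. Barrier lipid and protease genes were called higher in 10 of 34 and lower in 1, or higher in 6 without BALB/c replicate 2 and lower in 11 without IL-6 KO replicate 2.

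Basal, adhesion and junction genes were called higher in 19 of 33 and lower in 1, with a median of 0.69. Gjb6, the gap junction protein connexin 30, was at 124, 33.9 and 97.6 against 1.27, 1.66 and 1.62 CPM (5.79 ± 0.51, adjusted p = 0.000217). Dsc2, a desmosomal cadherin, was at 193, 49.6 and 141 against 3.97, 4.65 and 5.02 CPM (4.81 ± 0.52, adjusted p = 0.000406). The order of the IL-6 KO-labelled libraries in both genes, lowest in replicate 2, was that of the hair follicle markers. The basal keratins Krt5 (-0.30 ± 0.28, adjusted p = 0.426) and Krt14 (-0.12 ± 0.29, adjusted p = 0.756) were not called.

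Developmental signals were higher more often than lower. Wnt pathway genes were called higher in 26 of 49 and lower in 4 (2 without IL-6 KO replicate 3), with a median of 0.63. Lef1, a nuclear effector of the pathway (chr3:131110471-131224356), was at 83.4, 16.7 and 75.0 against 1.75, 0.664 and 1.46 CPM (5.46 ± 0.65, adjusted p = 0.000515). Lgr5, a receptor of R-spondins that marks follicle stem cells (chr10:115450311-115587780), was at 29.3, 24.6 and 28.6 against 7.94, 3.82 and 6.47 CPM (2.17 ± 0.25, adjusted p = 0.000444). Its relative Lgr6, which marks stem cells above the bulge, went the other way, at 20.6, 33.5 and 22.9 against 94.2, 56.8 and 91.4 CPM (-1.65 ± 0.24, adjusted p = 0.00116). The secreted inhibitor Sfrp5 was at 5.01, 4.06 and 2.54 against 20.2, 20.7 and 18.9 CPM (-2.37 ± 0.27, adjusted p = 0.000444). The groups did not overlap in any of the 4.

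Hedgehog and Notch genes were called higher in 17 of 28 and lower in 3, with a median of 0.62, and lower in 1 without IL-6 KO replicate 1 or BALB/c replicate 1 or 2. Gli3, a transcription factor of the Hedgehog pathway, was at 49.9, 21.7 and 45.3 against 7.47, 8.96 and 8.25 CPM (2.24 ± 0.32, adjusted p = 0.00109), and Notch1, a receptor of the second pathway, at 285, 160 and 293 against 75.6, 66.4 and 76.4 CPM (1.76 ± 0.26, adjusted p = 0.00131). Dhh, the ligand that Schwann cells make, was at 0.792, 0.813 and 0.847 against 3.50, 2.82 and 3.72 CPM (-2 ± 0.46, adjusted p = 0.00912). BMP, FGF and TGF-beta genes were called higher in 12 of 48 and lower in 12, or lower in 5 or 6 without IL-6 KO replicate 3 or BALB/c replicate 2 or 3. Bambi, a decoy receptor, was at 157, 38.2 and 109 against 3.50, 3.15 and 3.24 CPM (4.93 ± 0.49, adjusted p = 0.000289), and Bmp3, a ligand that opposes other BMPs, at 6.33, 10.4 and 4.45 against 31.5, 30.5 and 25.4 CPM (-2.04 ± 0.27, adjusted p = 0.000799).

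Immediate early genes were called higher in 11 of 27 and lower in 2, with 7 higher without BALB/c replicate 1 or 2 and 6 lower without IL-6 KO replicate 2. Egr1, a growth-induced transcription factor, was at 177, 123 and 118 against 38.0, 42.5 and 43.2 CPM (1.75 ± 0.29, adjusted p = 0.00197), and Dusp5, a phosphatase that ERK signalling induces, at 74.9, 38.2 and 51.3 against 9.06, 11 and 10.7 CPM (2.42 ± 0.30, adjusted p = 0.000578). Cdkn1a, the cell cycle inhibitor p21, was at 342, 257 and 297 against 99.8, 134 and 131 CPM (1.29 ± 0.19, adjusted p = 0.00123), so it was higher in the libraries in which mitosis genes were higher. Both receptors of corticosteroids were lower, with Nr3c1 at 63.3, 99.96 and 67.6 against 150, 147 and 153 CPM (-0.96 ± 0.18, adjusted p = 0.00348) and Nr3c2 at 2.64, 4.27 and 2.33 against 12.1, 15.4 and 12.8 CPM (-2.11 ± 0.26, adjusted p = 0.000592). Chromatin regulators were called higher in 16 of 38 and lower in 4. Splicing factors were called higher in 14 of 39 and lower in 4, and higher in 6 without IL-6 KO replicate 1 or 3 or BALB/c replicate 2 or 3. Satb1, an organiser of chromatin in lymphocytes and keratinocytes, was at 6.07, 20.1 and 5.72 against 35.9, 54.6 and 54.5 CPM (-2.16 ± 0.41, adjusted p = 0.00388).

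Beyond the lists, the genes with the largest differences by the naming rule were mostly of the hair shaft. Krt87, a hair keratin (chr15:101431490-101438804), was at 1691, 331 and 1458 CPM against 0 reads in BALB/c, at least 7155-fold higher. Outside keratin names, and chosen after their values were seen, Crnn, a fused S100 protein, was at 973, 255 and 640 against 0.477, 0 and 0.162 CPM, and Tchhl1, a trichohyalin relative, at 1084, 272 and 630 against 0.794, 0.664 and 0.809 CPM. Lyg2, a lysozyme-like gene, had 0 reads in BALB/c and was at least 987-fold higher, and Capn8, a calpain, at least 387-fold. Skint3 and Skint9, of a family known for the selection of epidermal T cells, had 0 reads in BALB/c and were at least 176-fold and 150.1-fold higher. At the other end, Adh6a, an alcohol dehydrogenase, was at 3.17, 9.14 and 4.87 against 121, 139 and 135 CPM (-4.49 ± 0.30, adjusted p = 4.44e-05). C57BL/6 means were 4.13 CPM for Crnn, 6.30 for Tchhl1, 0.714 for Lyg2 and 0.403 for Capn8. For Skint3 and Skint9 they were 32.3 and 47.2 CPM, and the IL-6 KO label was not called different from C57BL/6 (adjusted p = 0.833 and 0.251). Adh6a had a C57BL/6 mean of 11.1 CPM, with -0.92 for the IL-6 KO label and 3.57 for BALB/c against that strain.

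Several large differences shrank when near-identical copies were counted together. Rpl29, a ribosomal protein (chr9:106429454-106431568), was at 612, 423 and 533 against 2.07, 1.99 and 1.94 CPM, a log2 difference of 8.01 with 63.7% of its reads unique. Sums with copies count exon and intron reads together, and on that count Rpl29 alone was at 7.48. Summed with 39 copies of its sequence it was at 1.68, and with the intron reads of genes that hold copies at 0.53. On the same count Rps2 went from 3.19 to 1.84 and 0.55, and Rps18 from 3.84 to 0.42. Ahcy, an enzyme of the methylation cycle, went from 5.71 to 1.29 and Kpna2, a nuclear import factor, from 3.70 to 1.04. Exon reads alone gave 3.15 for Rps2, 4.00 for Rps18, 6.20 for Ahcy and 4.20 for Kpna2. Among genes that were lower, Tpm3-rs7 went from -5.79 (-5.90 on exon reads) to 0.58 with its parent Tpm3. Serpina1b went from -2.68 (-6.11 on exon reads) to 0.13 with its family. The values of these single genes are uncertain, since reads of such copies cannot be told apart.

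Intron reads, which come largely from transcripts not yet spliced, gave a second readout on the same libraries, at 340002 to 428187 reads in the IL-6 KO-labelled libraries and 455777 to 607322 in BALB/c. They made up 8.25% ± 0.534 (SD, n = 3) of gene reads in the IL-6 KO-labelled libraries and 7.83% ± 0.989 (SD, n = 3) in BALB/c, a difference of 0.426 percentage points (exact permutation test, two-sided, p = 0.5, where the smallest possible p is 0.1). The tables did not count introns alike. The 13 mitochondrial protein-coding genes had no intron read in the IL-6 KO-labelled libraries, 2.25% to 2.47% intron reads in BALB/c and 2.07% to 2.57% in C57BL/6. The 1681 nuclear genes with 1 exon had 1 or 2 such reads per library against 140 to 155 in BALB/c and 117 to 185 in C57BL/6. Genes with no annotated transcript did not divide the libraries in that way: they held 1.34% to 1.69% of intron reads in the IL-6 KO-labelled libraries, 2.54% to 3.37% in BALB/c and 1.02% to 1.13% in C57BL/6. On nuclear genes with introns, the shares of intron reads were 8.78% ± 0.604 and 8.12% ± 1.22 (SD, n = 3 each, exact permutation test, two-sided, p = 0.5). On genes that overlap no other the direction turned, at 6.95% ± 0.427 and 7.14% ± 0.909 (SD, n = 3 each, exact permutation test, two-sided, p = 0.8).

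On intron reads 2440 of 10378 genes tested were called (23.5%), 1263 higher (12.2%) and 1177 lower (11.3%), and the groups did not overlap in 39.8%. Of the 3723 exon calls among genes tested on both, 41.2% were called on introns too, and of the 2205 intron calls, 69.6% were called on exons. Genes lower on both numbered 674 and genes higher on both 816, while 26 were lower on exons and higher on introns and 19 the reverse. Across the 9760 genes tested on both, the log2 differences had Pearson r = 0.784 and Spearman rho = 0.704, over points that share libraries and are not independent replicates.

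**Figure D4:**
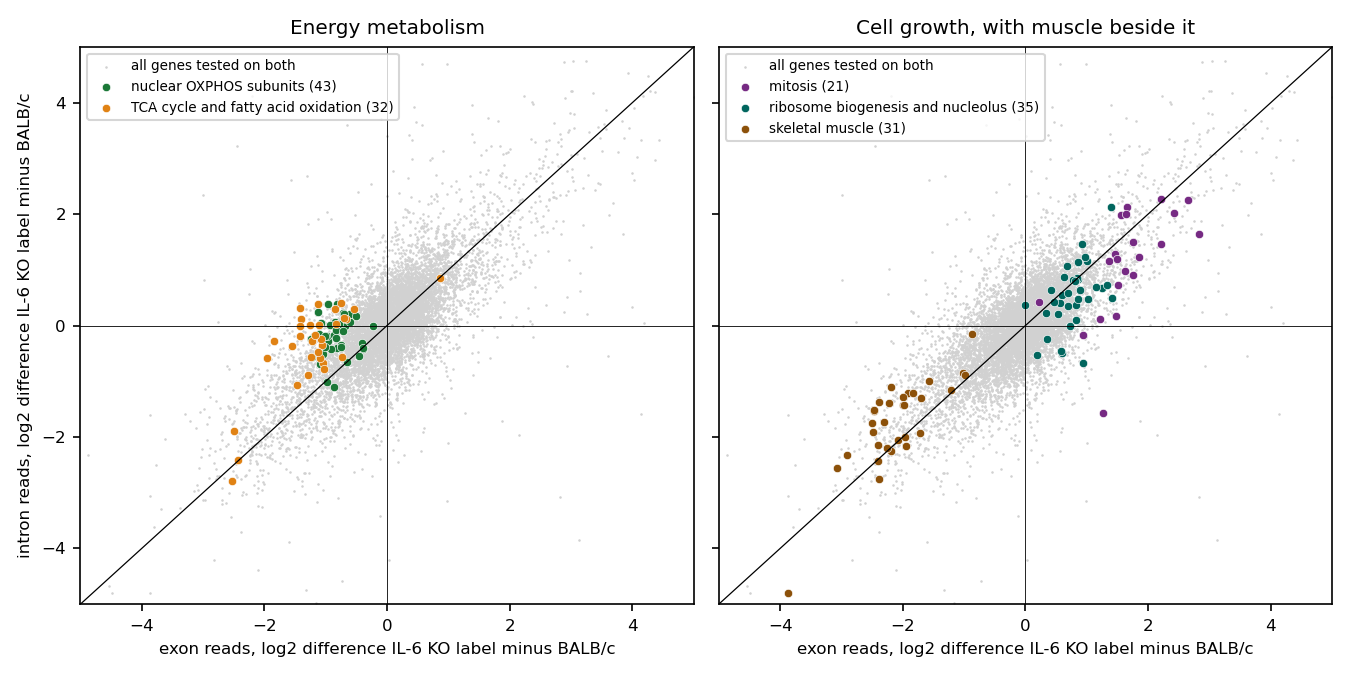
Log2 difference on intron reads (vertical) against exon reads (horizontal) for genes tested on both, with energy metabolism lists on the left and mitosis, ribosome biogenesis and muscle on the right; the diagonal marks equal differences. OXPHOS subunits lie left of 0 on exons and near 0 on introns, with medians of -0.85 and -0.18. Muscle genes have medians of -2.14 on exons and -1.54 on introns, and a difference between the lists was not tested.

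Fewer of the lower respiration genes were called on introns. The intron test found 32 of 96 simulated 2-fold changes, beside 50 of 100 for the exon test, and the tables did not count introns alike. Fewer intron calls are thus not by themselves a difference between the read classes. Nuclear OXPHOS subunits were called lower on introns in 2 of 43 and higher in 0, with a median of -0.18 (ranging from -0.28 to -0.09 with BALB/c replicate 2 or 1 left out), against 41 of 47 on exons. TCA cycle and fatty acid oxidation genes were called lower in 4 of 32 on introns (2 without BALB/c replicate 1), with a median of -0.27, or -0.09 without that library. Skeletal muscle genes were called lower on introns in 25 of 31 (13 of 15 that overlap no other gene) and on exons in 29 of 32.

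A direct test of the intron against the exon difference, with the library as a block, called 999 of 9760 genes (10.2%), with the intron difference above the exon difference in 517 (5.3%) and below it in 482 (4.94%). With the scaling factors of the exon reads used for both, 738 were called and the share above was 63.6% in place of 51.8%. Among OXPHOS subunits 15 of 43 were called above and 0 below, with a median difference of 0.66. Of TCA cycle and fatty acid oxidation genes 18 of 32 were called above and 0 below, with a median of 0.78. Of skeletal muscle genes 3 of 31 were called above (6 without BALB/c replicate 1, 1 without BALB/c replicate 3) and 1 below, with a median of 0.48, or 0.21 without IL-6 KO replicate 2. The muscle median thus also lay above 0, and whether it differed from that of OXPHOS was not tested. The count for OXPHOS was 5 without IL-6 KO replicate 2, 7 without IL-6 KO replicate 3, 8 without BALB/c replicate 2, 9 on genes that overlap no other, 2 without the library block and 1 with a replicate block. For the TCA list it was 9 without IL-6 KO replicate 3, without BALB/c replicate 1 or on genes that overlap no other, 4 with a replicate block and 1 without the library block.

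Single genes show the size of it. Ndufb5 was at -1.18 on exons and -0.20 on introns (adjusted p = 0.583), a difference between them of 0.95 ± 0.23 (adjusted p = 0.00535). Suclg1 was at -1.42 on exons and 0.31 on introns (difference 1.72 ± 0.23, adjusted p = 1.17e-06). Nnt, whose exon reads were lower by 2.88 on the log2 scale, was at -1.28 on introns. Suclg1 overlaps no other gene.

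Some other lists also had more members above than below in the direct test. Fatty acid synthesis and sebaceous genes had 6 of 28 above and 0 below, but 2 above without IL-6 KO replicate 1, 0 without IL-6 KO replicate 3 and 3 without BALB/c replicate 1. Glycolysis genes had 5 of 28 above and 1 below, but 0 above without BALB/c replicate 2, 1 without IL-6 KO replicate 2 and 3 without IL-6 KO replicate 3 or BALB/c replicate 3. Macrophage and monocyte genes had 4 of 11 above and 1 below, with a median of 0.74. Autophagy and lysosome genes had 4 of 28 above and 1 below. Without the library block, and also with a replicate block, the counts above were 0, 0, 2 and 1 in the same order.

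Mitosis genes were called higher on introns in 12 of 21 and lower in 1, with 7 higher without IL-6 KO replicate 1, 5 without IL-6 KO replicate 3 and 22 without IL-6 KO replicate 2, where more genes were tested. Genes of fibrillar collagens and matrix assembly had 8 of 30 below and 1 above in the direct test, but 3 to 5 below without any one of IL-6 KO replicates 1 to 3 or BALB/c replicates 1 and 2, and 0 without the library block. MHC class I genes were called lower on introns in 11 of 17 and higher in 1. H2-K1, the classical class I gene, was at 388, 932 and 407 against 707, 611 and 649 CPM on exons (-0.19 ± 0.31, adjusted p = 0.662) and at -1.32 on introns (adjusted p = 0.00907), a difference of -1.19 ± 0.19 (adjusted p = 2.24e-05).

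By the naming rule for the direct test, Lyz1, a lysozyme (chr10:117287796-117292868), had the smallest p. Its exon values were 25.3, 13.4 and 13.6 against 35.1, 100.7 and 102 CPM (-2.20 ± 0.49, adjusted p = 0.00749), and its introns held 141, 35 and 112 reads in the IL-6 KO-labelled libraries against 2, 11 and 9 in BALB/c (4.12 ± 0.61, adjusted p = 0.000186). The 2 readouts of this gene thus went opposite ways, by 6.20 ± 0.33 (adjusted p = 6.91e-17). Camk2b, a calmodulin-dependent kinase, was at -1.57 on exons and 2.61 on introns, and Phf20, a chromatin reader, at -0.98 and 2.03. Chac1 had 189, 93 and 155 intron reads against 0, 1 and 3, an intron difference of 7.07 ± 0.53 beside 2.39 on exons. Slc7a11 and Col4a6, named above from their lists, fall outside this rule because they overlap other genes. Slc7a11 was at 5.18 on exons and 0.42 on introns (adjusted p = 0.604), and Col4a6 at 3.61 and -0.54 (adjusted p = 0.235), with differences of -4.72 ± 0.55 and -4.15 ± 0.38. Reads of the genes they overlap may be part of these values.

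The lowest nuclear genes on introns were chosen after their values were seen, and some hold copies of other genes. Introns of Cfap77, a gene of cilia, held 8, 2 and 9 reads against 1902, 3750 and 3525, and the processed pseudogene Gm13394 that lies inside it was at 0 in all 6 libraries. Introns of Cnot6, a deadenylase, held 20, 14 and 16 reads against 1476, 1541 and 1667, and 2 processed pseudogenes inside it were at 0. On exons Cnot6 was at 142, 111 and 137 against 74.3, 76.2 and 80.4 CPM (0.75 ± 0.17, adjusted p = 0.00781). Introns of H2-Q2 held 0 reads in the IL-6 KO-labelled libraries against 71, 54 and 58.

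Values against C57BL/6, the strain named for the IL-6 KO libraries, stand beside these results, although the comparisons share libraries. In the same fit the IL-6 KO-labelled libraries differed from C57BL/6 in 5068 genes (35.2%; 19.2% higher, 16% lower) and BALB/c from C57BL/6 in 491 (3.41%; 1.63% higher, 1.78% lower). OXPHOS subunits were called lower in 34 of 47 against C57BL/6, and BALB/c against C57BL/6 gave 0. Some other lists had fewer calls against C57BL/6 than against BALB/c. TCA cycle and fatty acid oxidation genes were called lower in 12 of 34 against C57BL/6 beside 27 against BALB/c, genes on mitochondrial DNA in 4 of 13 beside 11, and adipocyte genes in 3 of 22 beside 11. Endothelial genes had more, with 20 of 27 called lower beside 7. Mitosis genes were called higher in 46 and lower in 1 against C57BL/6, where BALB/c gave 0 higher and 1 lower. Schwann cell genes were called lower in 10 of 21 and MHC class I genes in 9 of 23 against C57BL/6, and BALB/c had 0 Schwann cell genes called and 3 MHC class I genes higher.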

How the data were processed

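Total RNA of whole mouse skin was sequenced from 9 libraries. The deposited tables give counts of exon reads and gene reads for 49585 genes per library, per the file headers, against GRCm38, per the submitters' processing notes; no aligner is given in the sources used here. The authors' column of expression values was not used, because it is defined differently in the IL-6 KO tables. Intron reads are gene reads minus exon reads.

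Counts were tested with edgeR 4.0.16 (R 4.3.3), using TMM scaling, filterByExpr (minimum count 10, total 15), glmQLFit and glmQLFTest on all 9 libraries with 1 coefficient per group, and a Benjamini-Hochberg threshold of 0.05. The intron against exon test used the 6 libraries with the library as a block. CPM of single genes are TMM-scaled, and the SE is the log2 difference divided by the square root of F. Marker sums are per total exon reads and sums with copies per total gene reads, both without TMM scaling. Exon totals of 3843953 to 6242332 reads and 3 libraries a group limit the precision. On simulated counts for 14245 genes the exon test found 50 of 100 2-fold and 97 of 99 4-fold changes, and 7.55% of its calls were false. The simulation gave every gene the same dispersion, changed few genes and held no outlying library, so it does not give the share of false calls in these data. Copies were sought with blastn 2.17.0 at 95% identity over at least 200 bases, and 0.1 CPM was added before their log ratio.

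Members and lists were chosen with earlier results of these data known. Named genes are Il6 and strain-linked genes, the 10 highest and 10 lowest exon differences among called genes without overlap and at least 5 CPM, up to 3 called members per direction of each list by p, the 5 highest and lowest on introns, and up to 5 per direction of the intron against exon test. Of 58 lists, 54 lie outside hair, muscle and clock. Alternatives were DESeq2 1.42.0, other scalings, filters, unique reads, blocks and leaving out each library. Results for a few genes are not reported here.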

Additional observations from a re-analysis of the deposited data

How the results depend on the processing

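Of 268 named genes called on exon reads, 133 kept the call in every alternative run, 80 lost it only where a difference beyond 2-fold was tested, 54 without at least 1 library, 10 with a replicate block and 2 on unique reads. The number of exon calls was 1141 (697 higher, 444 lower) when tested against a minimum log2 difference of 1, 5699 with DESeq2, 5360 with RLE factors, 5196 with library size alone and 5126 on unique reads. Leaving out each library gave 3310 to 7044 exon calls (1861 to 3723 higher, 1449 to 3321 lower), 1529 to 3216 intron calls (790 to 1597 higher, 739 to 1619 lower) and 564 to 948 calls in the intron against exon test (288 to 483 above, 276 to 465 below). Intron calls were 1019 (505 higher, 514 lower) at a minimum count of 50, 679 (398 and 281) against a minimum log2 difference of 1, 1123 (568 and 555) on genes overlapping no other, where fewer genes were tested, and 1951 with DESeq2. The intron against exon test called 738 (469 above, 269 below) with the exon factors, 224 (116 and 108) without the library block and 429 (218 and 211) on genes overlapping no other. On nuclear genes with introns it called 963 of 9746 (512 and 451). The cause of these moves was not tested, beyond the smaller number of genes or libraries that some settings hold by construction. Medians of 9 of 58 lists changed sign without 1 library, and of 1 with library size alone.

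With the replicate number as a block, exon calls were 4553, intron calls 2195 and calls of the intron against exon test 254 (136 above, 118 below) in place of 999. The numbers do not pair the libraries by any label. Deviations of same-numbered libraries from their group means correlated at 0.062, 0.058 and 0.041 on exons and -0.0051, 0.039 and 0.0057 on introns, and each IL-6 KO-labelled library correlated best with its own number on exons but not on introns.

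On simulated counts at the depth of these libraries the intron test found 32 of 96 2-fold and 89 of 99 4-fold changes, and the intron against exon test 7 of 100 and 81 of 100. Exon and intron counts were drawn independently there, with the same dispersion for every gene of a read class and no effect of the library on single genes.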
